A study of Mus musculus with 13 samples.

Results

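The TRIM (tripartite motif) transcripts described here were Trim14, Trim21, Trim26, Trim30a, Trim30d and Trim34a, chosen by name as TRIM genes linked to interferon. Earlier results of these data were known at that choice, so shares of all genes below are a description. All 6 were among the 21084 gene rows of the count table, and all 6 passed the filter on low counts that left 15835 tested genes. They were measured by bulk RNA sequencing of sorted gamma delta intraepithelial lymphocytes (gd IELs), T cells that sit within the epithelium of the mouse small intestine. There were 3 UC7-IFNa, 3 UC7-PBS, 4 IgG-IFNa and 3 IgG-PBS libraries, all from wild-type (WT) mice, and the sources used here did not give their strain, age or number per library. The UC7 groups received 200 µg of UC7-13D5, an antibody to the gamma delta T cell receptor, and the IgG groups received 200 µg of Armenian hamster IgG. The protocol puts the antibody at 48 and 24 h before the cells were isolated, while the design text writes one time or the other. The IFNa groups were given 1 µg of murine interferon alpha intravenously for the last 5 h, and the PBS groups phosphate buffered saline (PBS) in its place.

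TRIM proteins usually carry a RING domain, a B-box and a coiled coil, and many act as ubiquitin ligases that switch antiviral signalling on or off or bind viral proteins directly. Type I interferons such as IFNa signal through the receptor IFNAR to transcription factors that bind interferon-stimulated response elements (ISREs) near the start of their target genes. Many TRIM genes are such targets. Trim14, which lacks a RING domain, works as an adaptor with the mitochondrial protein MAVS and protects the DNA sensor cGAS from breakdown by bringing in the deubiquitinase USP14. Trim21 is a cytosolic receptor for the constant part of antibodies and a ubiquitin ligase for interferon regulatory factors. Trim26 has been linked both to activation of the kinase TBK1 and to breakdown of nuclear IRF3. Trim30a, found in rodents, promotes breakdown of the adaptors TAB2 and TAB3 and so limits NF-kB signalling. Trim30d is its close relative and has been described in mouse cells as restricting tick-borne flaviviruses. The human relative of Trim34a, TRIM34, can act with TRIM5 against some lentiviruses.

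Promoter sequences are shown for the members that had one in the RefSeq table (build GRCm38.p6). The ISRE, through which IFNa acts at many of its target genes, can be looked for in these sequences. Each runs from 250 bases before to 50 bases after an annotated start, 5′ to 3′ on the gene's own strand. Capitals mark the ISRE core on either strand, searched as GAAA, any 2 bases and GAAA again. On the opposite strand it reads as TTTC, any 2 bases and TTTC. Trim14 was not matched. The windows of Trim30a (chr7:104465144-104465443, minus strand), Trim30d (chr7:104507800-104508099, minus strand) and Trim34a (chr7:104244207-104244506, plus strand), the members whose transcripts rose with IFNa below, come first. Those of Trim21 (chr7:102565433-102565732, minus strand) and Trim26 (chr17:36836896-36837195, plus strand) follow.
Trim30a: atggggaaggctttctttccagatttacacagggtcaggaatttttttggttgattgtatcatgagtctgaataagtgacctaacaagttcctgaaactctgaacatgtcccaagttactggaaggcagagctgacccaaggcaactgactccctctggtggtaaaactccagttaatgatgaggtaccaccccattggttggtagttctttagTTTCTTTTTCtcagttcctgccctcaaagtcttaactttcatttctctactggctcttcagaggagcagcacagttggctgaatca
Trim30d: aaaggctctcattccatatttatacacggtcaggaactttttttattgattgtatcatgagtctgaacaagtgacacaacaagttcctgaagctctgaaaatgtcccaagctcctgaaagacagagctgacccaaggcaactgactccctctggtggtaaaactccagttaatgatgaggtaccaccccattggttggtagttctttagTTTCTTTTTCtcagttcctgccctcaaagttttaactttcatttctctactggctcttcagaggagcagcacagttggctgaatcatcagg
Trim34a: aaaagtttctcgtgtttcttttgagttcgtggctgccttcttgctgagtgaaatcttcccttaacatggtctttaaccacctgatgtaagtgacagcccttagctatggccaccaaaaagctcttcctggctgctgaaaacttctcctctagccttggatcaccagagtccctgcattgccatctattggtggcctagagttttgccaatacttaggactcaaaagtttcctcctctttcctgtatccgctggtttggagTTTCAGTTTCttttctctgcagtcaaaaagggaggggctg
Trim21: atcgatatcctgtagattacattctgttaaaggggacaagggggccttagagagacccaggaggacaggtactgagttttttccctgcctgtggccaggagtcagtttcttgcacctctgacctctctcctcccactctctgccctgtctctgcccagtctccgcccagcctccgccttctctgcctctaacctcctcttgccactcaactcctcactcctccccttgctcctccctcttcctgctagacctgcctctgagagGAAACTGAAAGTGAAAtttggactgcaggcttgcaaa
Trim26: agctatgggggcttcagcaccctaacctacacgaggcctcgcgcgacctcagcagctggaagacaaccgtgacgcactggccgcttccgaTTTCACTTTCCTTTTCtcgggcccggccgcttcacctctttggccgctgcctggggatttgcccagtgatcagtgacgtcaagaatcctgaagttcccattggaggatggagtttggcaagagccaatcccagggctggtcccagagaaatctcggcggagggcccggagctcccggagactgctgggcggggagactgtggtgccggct
All 5 members with a window held the ISRE core, against 3.44% of all 32851 windows of the same length (1131 windows). Counted by gene, with the core in any of its windows, the share was 3.99% (1079 of 27025 genes). Among the other TRIM genes with a window, 4 of 37 (10.8%) held it, namely Trim12a, Trim12c, Trim2 and Trim5. Counted from the annotated start, the core's first base lay at -36 in Trim30a, -41 in Trim30d and 11 in Trim34a. Trim21 had cores at 14 and 20 that overlap and together read GAAACTGAAAGTGAAA, and Trim26 had overlapping cores at -160 and -154. Such a triple repeat of GAAA with 2 bases between, on either strand, stood in 0.116% of all windows. A second Trim30a window, starting at 104446076, held the core at 3. The Trim30a and Trim30d windows matched at 93.6% of their aligned columns (276 of 295), whereas the Trim30a window matched those of Trim34a, Trim21 and Trim26 at 50.8%, 49.8% and 48.4%. A match of letters is a description of these windows and does not show that a factor bound there.

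Beside the values below stand some facts of the libraries. Totals ran from 19867201 to 26895876 estimated counts. Levels are depth-scaled counts (CPM, with TMM, a trimmed-mean scaling between libraries), and they compare a gene between libraries, not genes with each other. The sorted cells carried 15 of 15 gd IEL markers in every library, summing to 58601 to 88619 CPM in UC7-IFNa, 59183 to 69107 in UC7-PBS, and 57311 to 71002 in IgG-IFNa and 50858 to 55030 in IgG-PBS. Of 7 alpha beta T cell markers all were found, summing to 1683 to 2731 CPM in UC7-IFNa and 1530 to 1799 in UC7-PBS, and to 1515 to 2148 in IgG-IFNa and 1526 to 1890 in IgG-PBS. In a bulk library, a lower share of cells of a type and less RNA per cell cannot be told apart. UC7-IFNa library 2 stood apart. It had the lowest total, with Rn18s, a ribosomal RNA gene, taking 1.14% of counts where other libraries gave it 0.0866% to 0.333%. It correlated with other UC7-IFNa libraries at 0.940 at the lowest, where the lowest within the other groups was 0.973. Transcripts of the sex chromosomes also followed the antibody. In CPM without TMM scaling, the sum of 4 Y-linked genes was 132 to 329 in UC7-IFNa, 300 to 328 in UC7-PBS, and 1.67 to 320 in IgG-IFNa and at most 0.310 in IgG-PBS. Within IgG-IFNa it was 2.15 and 1.67 in libraries 1 and 2 and 210 and 320 in libraries 3 and 4. Xist, a transcript of the X chromosome, stood at 204, 215, 68.3 and 23.4 CPM in IgG-IFNa libraries 1 to 4 on the same scale. In IgG-PBS it was 265 to 345 CPM, and in either UC7 group at most 1.08. With PBS, the antibody and the sex-linked transcripts therefore cannot be told apart, whereas with IFNa libraries 3 and 4 of IgG-IFNa separate them in part. After IgG, these transcripts also differed between the IFNa and PBS groups, chiefly in IgG-IFNa libraries 3 and 4.

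IFNa against PBS asked how these transcripts stood a few hours after IFNa, in mice given UC7-13D5 or IgG. Trim30a, Trim30d and Trim34a rose with IFNa when the IFNa effect was averaged over both antibodies, each to a little under double its PBS level. That is 3 of 6 members, beside 1.57% of all tested genes called higher. Trim14, Trim21 and Trim26 did not pass the test. The 3 that rose lie close together on chromosome 7, while Trim21 lies elsewhere on chromosome 7, Trim14 on chromosome 4 and Trim26 on chromosome 17. Tests were edgeR quasi-likelihood F tests over all tested genes with Benjamini-Hochberg adjustment, and a gene past an adjusted p of 0.05 is called.

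**Figure D1:**
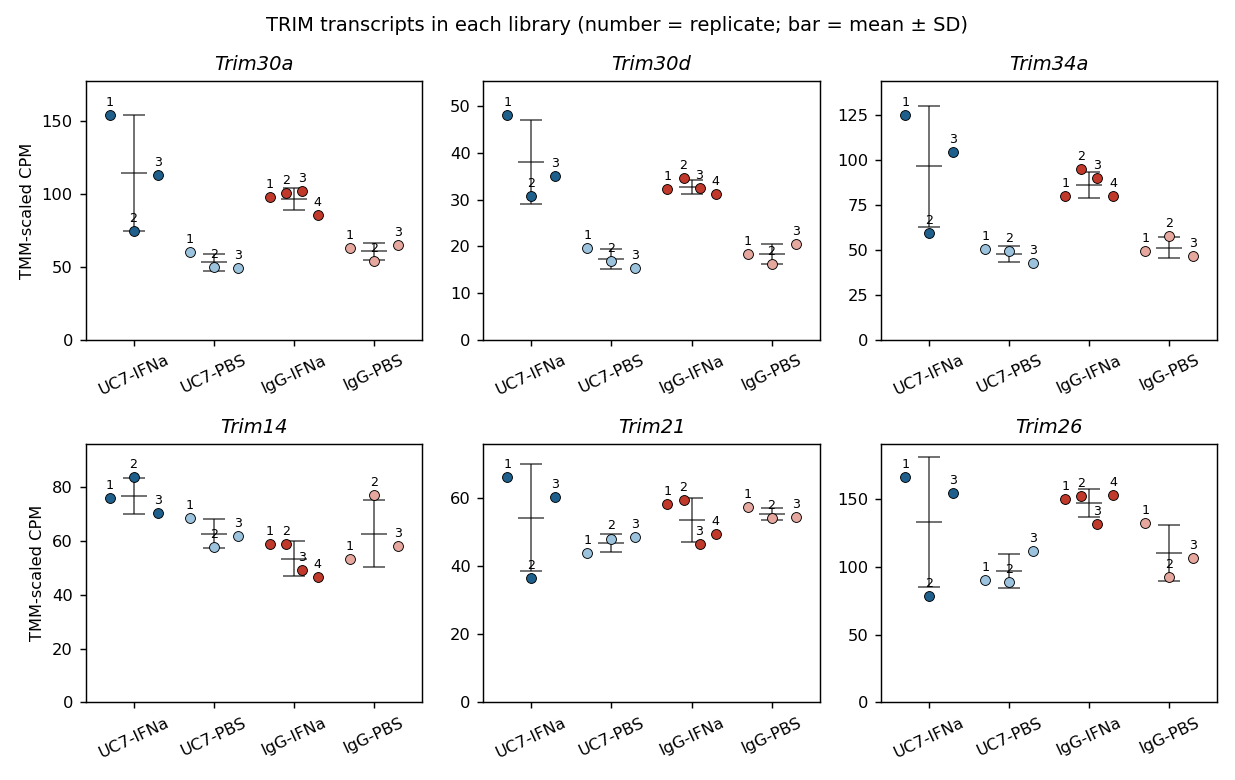
TMM-scaled CPM of the 6 TRIM transcripts in each of the 13 libraries; points are libraries with their replicate number, and bars are the group mean ± SD. Trim30a, Trim30d and Trim34a lie higher in every IFNa library than in any PBS library of the same antibody, and UC7-IFNa library 2 is the lowest of its group for every gene but Trim14.

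Trim30d (ENSMUSG00000057596, mm39 chromosome 7, 104119221 to 104157057, minus strand) stood at 48.2, 30.9 and 35.0 CPM in UC7-IFNa libraries 1 to 3, against 19.6, 16.9 and 15.4 CPM in UC7-PBS libraries 1 to 3. After IgG it stood at 32.4, 34.8, 32.5 and 31.3 CPM in IFNa libraries 1 to 4, against 18.3, 16.3 and 20.5 CPM in PBS libraries 1 to 3. Every IFNa library was above every PBS library, whichever the antibody, and the IgG-IFNa libraries were the most even. The log2 fold change was 1.14 after UC7-13D5 (SE 0.18, edgeR adjusted p = 0.00639) and 0.83 after IgG (SE 0.17, edgeR adjusted p = 0.0308). Averaged over both antibodies it was 0.99 (SE 0.12, edgeR adjusted p = 0.000418). Of the 6 members it alone was called after each antibody. The call after IgG was lost without any 1 of the 7 IgG libraries, with adjusted p up to 0.169, and without IgG-IFNa libraries 3 and 4 together, where the log2 fold change was 0.87 and the adjusted p 0.279. It was also lost with the replicate number as a block and with the Y-linked sum as a covariate. After UC7-13D5 the call was lost without UC7-PBS library 3 (edgeR adjusted p = 0.0794). It was also lost there when only the groups compared were fitted (edgeR adjusted p = 0.291).

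Trim30a (ENSMUSG00000030921, chromosome 7, 104058232 to 104114401, minus strand) stood at 155, 74.9 and 113 CPM in UC7-IFNa, against 60.0, 49.8 and 49.5 CPM in UC7-PBS. With IgG the levels were 98.1, 101, 102 and 85.9 CPM with IFNa, against 63.1, 54.1 and 65.2 CPM with PBS. The groups did not overlap after either antibody, although UC7-IFNa library 1 held about double the level of library 2. Its log2 fold change was 1.11 after UC7-13D5 (SE 0.21, edgeR adjusted p = 0.0271), 0.67 after IgG (SE 0.19, edgeR adjusted p = 0.159) and 0.89 on average (SE 0.14, edgeR adjusted p = 0.00331). The call after UC7-13D5 was lost without any 1 of 8 libraries: IgG-IFNa 1, IgG-PBS 1 or 3, UC7-IFNa 1 or 3, or any UC7-PBS library. The highest edgeR adjusted p among these omissions was 0.174. The same call was lost with the replicate number as a block, without IgG-IFNa libraries 3 and 4 together, and when only the groups compared were fitted.

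Trim34a (ENSMUSG00000056144, chromosome 7, 103893664 to 103911442, plus strand) stood at 125, 59.7 and 105 CPM in UC7-IFNa, against 50.8, 49.4 and 42.7 CPM in UC7-PBS. In the IgG groups it stood at 79.8, 94.9, 89.8 and 79.9 CPM with IFNa, against 49.3, 57.9 and 46.5 CPM with PBS. Again no PBS library reached an IFNa library of the same antibody. The log2 fold change was 1.02 after UC7-13D5 (SE 0.21, edgeR adjusted p = 0.0582) and 0.75 after IgG (SE 0.20, edgeR adjusted p = 0.115), neither of them called by edgeR. DESeq2 called Trim34a after each antibody. Averaged over both antibodies the log2 fold change was 0.88 (SE 0.15, edgeR adjusted p = 0.00402), which was called.

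**Figure D2:**
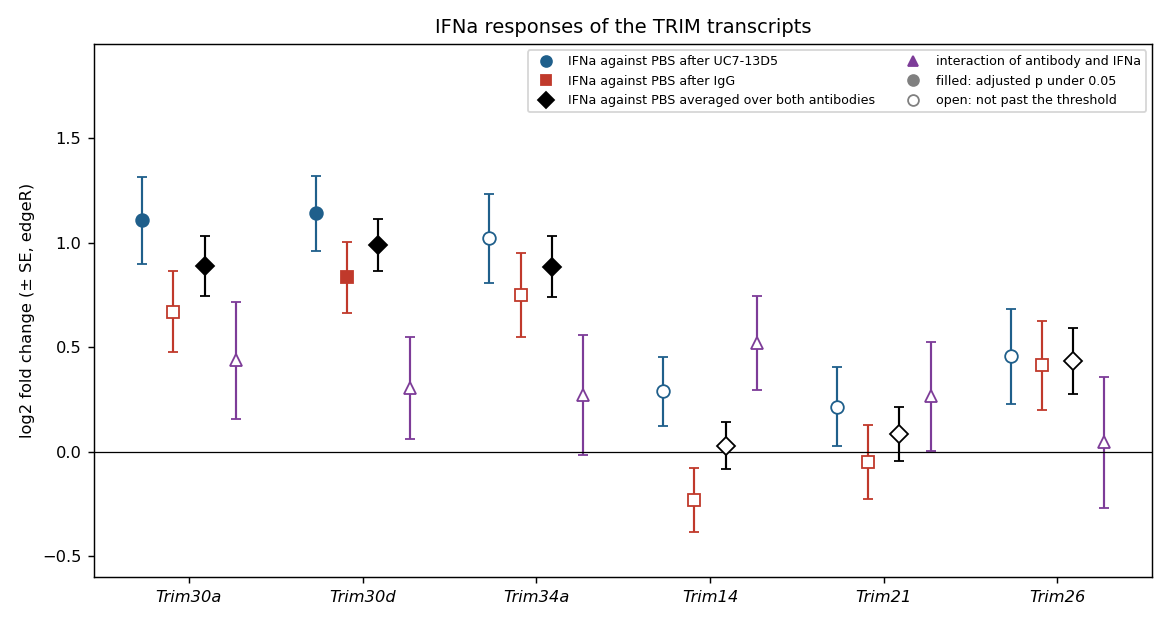
log2 fold changes of the 6 TRIM transcripts (points, ± SE, edgeR) for IFNa against PBS after UC7-13D5, after IgG and averaged over both antibodies, and for the interaction, which is the UC7-13D5 value minus the IgG value; filled points passed an adjusted p of 0.05. The averaged values of Trim30a, Trim30d and Trim34a lie between 0.88 and 0.99, and no interaction is filled.

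Set against all tested genes, 2 of the 6 members were called higher after UC7-13D5, where 0.335% of genes were. After IgG it was 1 of 6, where 0.619% of genes were called higher, and on average it was the 3 of 6 given above. Libraries did not overlap, with IFNa the higher, for 4 of the 6 members after UC7-13D5 (5.89% of all genes) and for 3 of 6 after IgG (7.09% of all genes). The median log2 fold change of the 6 was 0.74 after UC7-13D5, 0.54 after IgG and 0.66 on average, beside 0.022, -0.012 and 0.0053 over all tested genes. By size of the averaged log2 fold change Trim30d ranked 299, Trim30a 388 and Trim34a 393 of 15835. Without UC7-IFNa library 2, the members called higher were 4 after UC7-13D5 (Trim30a, Trim30d, Trim34a and Trim26), 3 after IgG (Trim30a, Trim30d and Trim34a) and 4 on average. In the same fits 0.586%, 1.84% and 3.57% of 16224 genes were called higher after UC7-13D5, after IgG and on average. The UC7-IFNa means without that library were 134 CPM for Trim30a, 41.6 for Trim30d and 115 for Trim34a, against 114, 38.0 and 96.5 CPM with it.

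Trim26 (ENSMUSG00000024457, chromosome 17, 37148026 to 37170291, plus strand) stood at 166, 78.1 and 154 CPM in UC7-IFNa, against 90.1, 88.9 and 112 CPM in UC7-PBS. The IgG groups held 150, 152, 131 and 153 CPM with IFNa, against 132, 92.1 and 106 CPM with PBS. UC7-IFNa library 2 was the lowest of all 13, and IgG-IFNa library 3 lay just under IgG-PBS library 1, so the groups overlapped after both antibodies. The log2 fold change was 0.46 after UC7-13D5 (SE 0.23, edgeR adjusted p = 0.687), 0.41 after IgG (SE 0.21, edgeR adjusted p = 0.527) and 0.43 on average (SE 0.16, edgeR adjusted p = 0.190). Without UC7-IFNa library 2 the averaged value was 0.56 with an adjusted p of 0.00313, and that after UC7-13D5 was 0.72 with an adjusted p of 0.0391, so that this 1 library decided its call.

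Trim21 (ENSMUSG00000030966, chromosome 7, 102207128 to 102214694, minus strand) stood at 66.1, 36.5 and 60.3 CPM in UC7-IFNa, against 43.8, 48.1 and 48.5 CPM in UC7-PBS. With IgG it was at 58.4, 59.5, 46.4 and 49.6 CPM with IFNa, against 57.4, 54.1 and 54.4 CPM with PBS. IFNa and PBS libraries overlapped after both antibodies. The log2 fold change was 0.21 after UC7-13D5 (SE 0.19, edgeR adjusted p = 0.844), -0.049 after IgG (SE 0.18, edgeR adjusted p = 0.969) and 0.083 on average (SE 0.13, edgeR adjusted p = 0.842). Its window above held the triple repeat next to the start, as that of Trim26 held one farther upstream.

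Trim14 (ENSMUSG00000039853, chromosome 4, 46493781 to 46536142, minus strand) stood at 75.9, 83.7 and 70.6 CPM in UC7-IFNa, against 68.6, 57.8 and 62.1 CPM in UC7-PBS. In the IgG groups the levels were 59.0, 58.8, 49.4 and 46.5 CPM with IFNa, against 53.2, 77.0 and 58.3 CPM with PBS. After UC7-13D5 the IFNa libraries lay above the PBS libraries by a small margin, whereas after IgG the groups overlapped. The log2 fold change was 0.29 after UC7-13D5 (SE 0.16, edgeR adjusted p = 0.722), -0.23 after IgG (SE 0.15, edgeR adjusted p = 0.649) and 0.027 on average (SE 0.11, edgeR adjusted p = 0.949). Trim14 was also the one member for which UC7-IFNa library 2 was the highest of its group.

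UC7-13D5 against IgG asked whether the members stood at another level when the receptor had been bound. With IFNa, Trim14 averaged 76.7 ± 6.59 CPM in UC7-IFNa (SD, n = 3) and 53.4 ± 6.44 CPM in IgG-IFNa (SD, n = 4), and every UC7-IFNa library was above every IgG-IFNa library, as for 3.73% of all genes. The log2 difference of 0.52 (SE 0.15) had an unadjusted p of 0.00375 and an edgeR adjusted p of 0.342, so it was not called. The IgG-IFNa libraries with high Y-linked levels, 3 and 4, held 49.4 and 46.5 CPM of Trim14, below the 59.0 and 58.8 CPM of libraries 1 and 2. With the Y-linked sum as a covariate the log2 difference was 0.67 (SE 0.16, edgeR adjusted p = 0.111). Without IgG-IFNa libraries 3 and 4 it was 0.38 (SE 0.18, edgeR adjusted p = 0.797). With all libraries and no covariate, the other 5 members had log2 fold changes of -0.14 (Trim26) to 0.24 (Trim30a) with IFNa. With PBS, the 6 ranged from -0.24 (Trim21) to 0.000071 (Trim14), and Trim21 was the one whose libraries did not overlap (5.8% of all genes were lower without overlap), with 46.8 ± 2.65 CPM in UC7-PBS and 55.3 ± 1.78 CPM in IgG-PBS (SD, n = 3 each). None of the 6 was called in either comparison, where 0.0758% of genes were called with IFNa and 0.00632% with PBS. At an unadjusted p under 0.05 there was 1 member with IFNa and 0 with PBS, beside 7.19% and 5% of all genes, and DESeq2 and limma called 0 in each.

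The interaction asked whether the IFNa effect differed between antibodies. Its estimate was positive for all 6 members, which means a higher value after UC7-13D5, and the median over all tested genes was 0.016. The estimates ran from 0.043 (SE 0.31) for Trim26, which turned negative in 8 of 21 alternative fits, to 0.52 (SE 0.22) for Trim14. Trim21 had 0.26 (SE 0.26), Trim34a 0.27 (SE 0.29), Trim30d 0.30 (SE 0.24) and Trim30a 0.44 (SE 0.28). No member was called by edgeR, DESeq2 or limma, and Trim14 alone had an unadjusted p under 0.05 (0.0345). The share of all tested genes called was 0% (0 genes by edgeR, 5 by DESeq2 and 0 by limma), with 502 genes (3.17%) at an unadjusted p under 0.05. Even the estimate for Trim14, at more than its standard error, was not called, so differences of that size between antibodies could be missed here.

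Set per kilobase of merged exon, which allows genes to be compared, Trim34a had the highest mean of the 6, at 37.2 ± 12.9 CPM per kb in UC7-IFNa, 18.4 ± 1.67 in UC7-PBS, and 33.2 ± 2.89 in IgG-IFNa and 19.8 ± 2.29 in IgG-PBS (SD, n = 3, 3, 4 and 3). Trim30d had the lowest on the same scale, at 10.1 ± 2.41, 4.6 ± 0.565, 8.71 ± 0.388 and 4.88 ± 0.564 CPM per kb in the same groups. In UC7-IFNa, Trim34a lay within the sum of the SDs of Trim30a and of Trim26, and in IgG-PBS of Trim26. Trim30d lay within it of Trim21 and of Trim26 in UC7-IFNa. For the members between Trim34a and Trim30d the order differed between groups. In IgG-IFNa, Trim30a (23.5 ± 1.80) and Trim26 (21.3 ± 1.5) lay above Trim21 (14.4 ± 1.75) and Trim14 (12.3 ± 1.48), and within each of these pairs the means differed by less than the sum of their SDs. In UC7-IFNa, Trim30a (27.8 ± 9.69), Trim26 (19.3 ± 6.94), Trim14 (17.7 ± 1.52) and Trim21 (14.6 ± 4.22) followed one another, each neighbour in that order within the sum of the SDs. In IgG-PBS the same 4 genes lay between 14.5 ± 2.89 (Trim14) and 16.0 ± 2.97 (Trim26), within their SDs. Reads may be split between near copies. In the GENCODE M21 transcripts, 21% of the 100-base stretches of Trim34a also occurred in Trim34b, and 4.41% of those of Trim30a and 4.57% of those of Trim30d occurred in the other of the pair. Trim34b itself averaged at most 1.02 CPM in any group. For Trim14, 31.3% of its exonic bases (1356 of 4338) overlap the opposite-strand gene Nans, and without a stated strand the reads of both cannot be told apart there. Nans averaged 70.3 ± 16.5 CPM in UC7-IFNa and 60.3 ± 6.24 in UC7-PBS, and 61.3 ± 4.47 CPM in IgG-IFNa and 63.9 ± 3.75 in IgG-PBS. Of Trim34a, 23.5% of exonic bases overlap the opposite-strand gene Gm47248.

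The TRIM genes around the 3 that rose, from Trim6 to Trim30d (mm39 chromosome 7, 103868000 to 104157057), were looked at after their values were seen. This stretch of 289058 bases holds 13 rows of the table, of which 10 are TRIM genes and all 10 were tested, and it begins 1653306 bases past the end of Trim21. All 10 had a positive averaged log2 fold change and 4 were called: Trim34a, Trim12c, Trim30a and Trim30d. The stretch was drawn around Trim30a, Trim30d and Trim34a, so their 3 calls were fixed by that choice, and Trim12c was the only other. Of the 35 TRIM genes tested outside the stretch, 1 was called, and 1.57% of all tested genes were called higher. The counts inside and outside the stretch are therefore not a comparison of like sets. Trim12c, a mouse relative of human TRIM5, a protein that recognises retroviral capsids, stood at 81.8, 37.7 and 67.1 CPM in UC7-IFNa, against 24.3, 37.9 and 29.5 CPM in UC7-PBS. After IgG, Trim12c stood at 60.0, 58.8, 75.6 and 62.4 CPM with IFNa, against 33.8, 33.3 and 24.7 CPM with PBS. UC7-IFNa library 2 lay just below the highest UC7-PBS library, and the other IFNa libraries were all above. Its averaged log2 fold change was 1.05 (SE 0.17, edgeR adjusted p = 0.00345), as large as those of the members. The other genes of the stretch varied. Trim12a, with 102 ± 20.1 CPM in UC7-IFNa, 75.4 ± 6.20 in UC7-PBS, and 100 ± 5.46 in IgG-IFNa and 79 ± 3.53 in IgG-PBS, had a log2 fold change of 0.39 that was not called by edgeR (adjusted p = 0.0731) but was by DESeq2. Trim5, between Trim34a and Trim12a, had 0.11 (SE 0.15, edgeR adjusted p = 0.821). Trim6, Trim34b, Trim30b and Trim30c averaged at most 1.02 CPM in any group, and their log2 fold changes of 0.33 to 1.32 (SE 0.41 to 0.82) were not called.

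**Figure D3:**
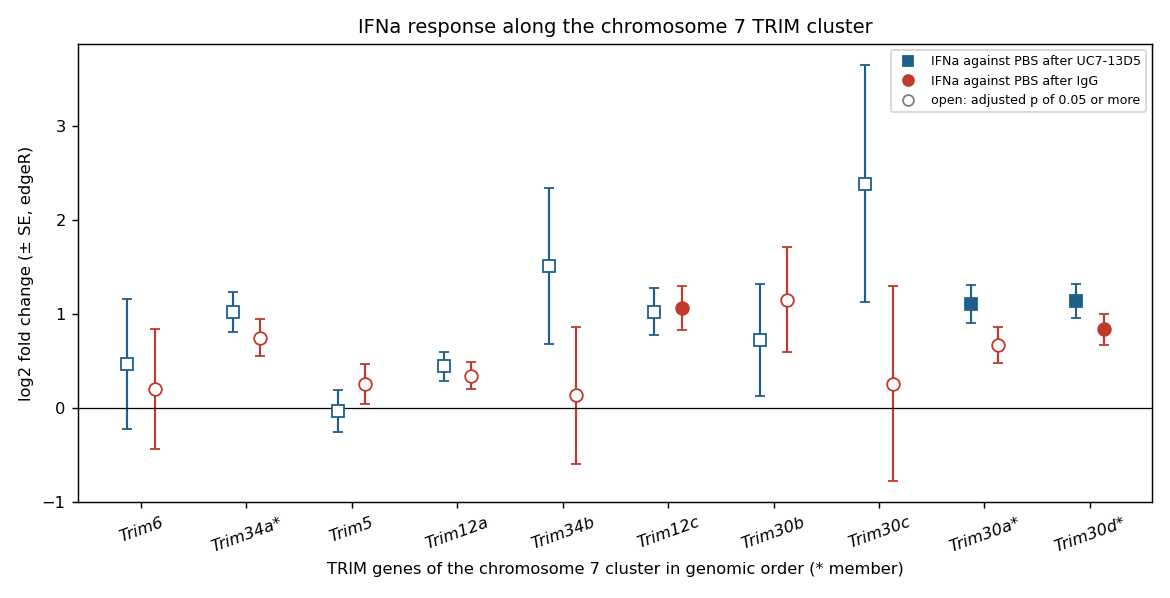
log2 fold changes (± SE, edgeR) of IFNa against PBS after UC7-13D5 (squares) and after IgG (circles) for the 10 tested TRIM genes of the chromosome 7 stretch in genomic order, with a star at the members; filled points passed an adjusted p of 0.05. Trim12c, Trim30a and Trim30d have at least 1 filled point, Trim34a lies at 1.02 and 0.75, and Trim5 lies near 0.

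In the family at large, the count table held 52 TRIM rows (Trim with a number, and Pml), of which 45 were tested. Of the 39 tested that are not members, 2 were called higher and 0 lower on average by edgeR, and their median log2 fold change was -0.0038. DESeq2 called 3 higher and 0 lower, and limma, which tested only 26 of the 39, called 2 and 0. At an unadjusted p under 0.05 in edgeR 6 were higher and 2 lower. Those called by edgeR were Trim12c and Trim25, the ubiquitin ligase of the RNA sensor RIG-I. Trim25 stood at 57.5 ± 3.40 CPM in UC7-IFNa and 38.8 ± 5.16 in UC7-PBS, and at 43.1 ± 3.72 in IgG-IFNa and 35.4 ± 3.89 in IgG-PBS. Averaged, its log2 fold change was 0.42 (SE 0.10, edgeR adjusted p = 0.0443), and this was no longer called in 15 of 21 alternatives. Its value over all 21 was 0.38 to 0.48. Of 22 other TRIM genes listed for antiviral or interferon signalling, 20 were tested, and the same 2 were called higher on average. After IgG it was 1, Trim12c, and this call was lost in 14 of 21 alternatives, with adjusted p up to 0.477. After UC7-13D5 it was 0 by edgeR, with 4 higher at an unadjusted p under 0.05, 2 by DESeq2 and 0 by limma, which tested 15 of the 20. Pml, which organises nuclear bodies, had 0.53 (SE 0.17, edgeR adjusted p = 0.137) and was not called.

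**Figure D4:**
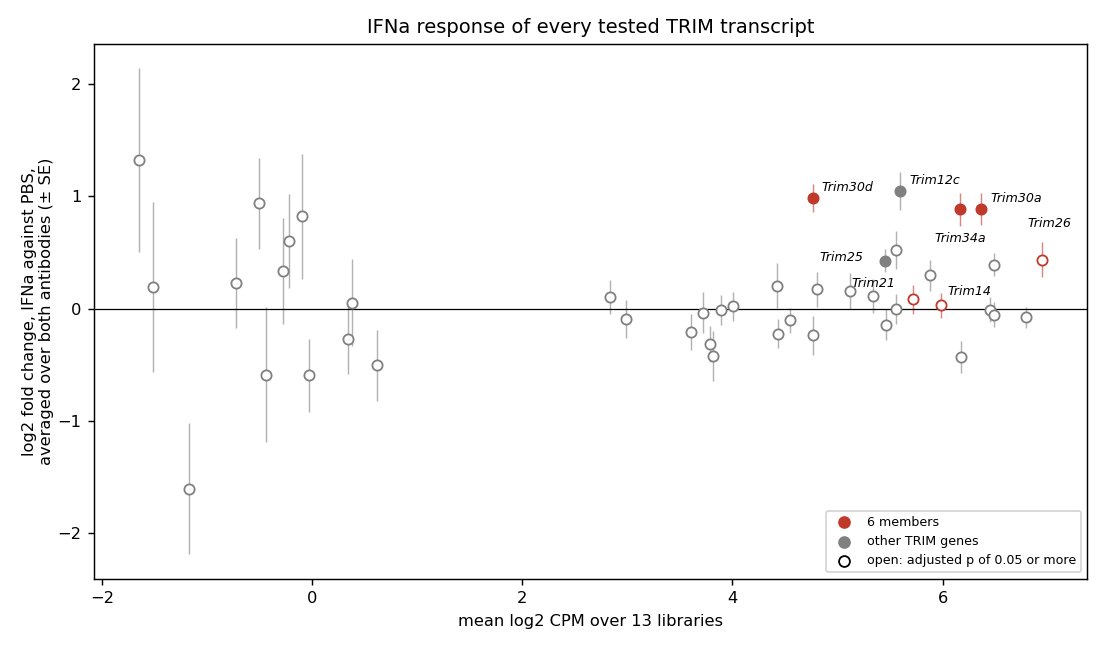
Averaged log2 fold change of IFNa against PBS (± SE) plotted against mean log2 CPM for the 45 tested TRIM transcripts, members in red and the others in grey, filled where the adjusted p was under 0.05. Trim30a, Trim30d, Trim34a, Trim12c and Trim25 are the 5 filled points. The open points farthest from 0 lie at low CPM. At higher CPM, Pml (0.53), Trim26 (0.43) and Trim35 (-0.43) are open and farther from 0 than Trim25 (0.42).

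No listed partner of the members passed the test. Of 16 partners and substrates, 15 were tested (Nlrp3 was not) and 0 were called after UC7-13D5, after IgG or on average by edgeR, DESeq2 or limma. At an unadjusted p under 0.05 in edgeR there were 2 higher and 1 lower after UC7-13D5, 0 after IgG, and 1 higher and 1 lower on average. The median of their averaged log2 fold changes was -0.0023, from -0.27 for Ube2w, a ubiquitin-conjugating enzyme, to 0.40 (SE 0.14, edgeR adjusted p = 0.184) for Cgas, the DNA sensor. Mavs (-0.00076), Usp14 (-0.10), Tab2 (-0.13), Tab3 (-0.090), Tbk1 (0.12) and Irf3 (0.095) lay in between. Of the listed genes of interferon signalling upstream of the members, Irf9, which takes part in binding ISREs, Irf7, a factor that amplifies the response, and Usp18, an inhibitor of the receptor, were called higher by edgeR in each of the IFNa comparisons. Their log2 fold changes were 1.60, 1.94 and 3.26 after UC7-13D5 and 1.10, 1.40 and 2.22 after IgG, in the order just named. Averaged, they were 1.35, 1.67 and 2.74, each above the averaged values of Trim30a, Trim30d and Trim34a, a difference that was not tested. A further 9 genes of the list were not called by edgeR in any of these comparisons, among them Jak1, a kinase of the receptor (0.0079 on average), Irf1, a factor that binds related elements (0.067), and Socs1, an inhibitor of the kinases (-0.29). Of the same 9, Stat2 had 0.66 on average (SE 0.17, edgeR adjusted p = 0.0618) and was called there by DESeq2. Ifnar1 had 0.47 on average (SE 0.14, edgeR adjusted p = 0.118).

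The members' patterns over the 13 libraries were compared with those of 8713 other genes, by the root mean square difference of log2 CPM centred on each gene's mean. The nearest to Trim30a were Trim30d (0.127), Trim34a (0.151) and Ddx24 (0.207). Trim30d had Trim30a (0.127), Trim34a (0.198) and Trafd1 (0.207) nearest, and Trim34a had Trim30a (0.151), Trafd1 (0.174) and Ifi209 (0.177). For each of the 3, another of them was the nearest gene, and the medians over all candidates were 0.534 to 0.561. Trim14 lay nearest to Panx1 (0.147), Cdc42se1 (0.150) and Slc35a4 (0.151), Trim21 to Ddx20 (0.0635), Exoc3 (0.0939) and Kansl2-ps (0.0947), and Trim26 to Dgka (0.102), Gramd1a (0.111) and Trp53bp1 (0.122). The libraries share depth and quality differences, among them those of UC7-IFNa library 2, so these distances are a description.

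Other measures moved with IFNa in some groups. The summed level of 11 of 11 secretory epithelium markers was 363 to 1236 CPM in UC7-IFNa and 835 to 1880 in UC7-PBS, and 575 to 1176 in IgG-IFNa and 80.3 to 527 in IgG-PBS, with no marker at 0. The sum was above that of PBS in every IFNa library after IgG, and overlapped between IFNa and PBS after UC7-13D5. Of these markers Zg16 and Fcgbp, goblet cell products, were called higher by edgeR after IgG and Zg16 on average. Of the alpha beta T cell markers given above, Cd6 was called lower after IgG (-1.32, SE 0.29, edgeR adjusted p = 0.0468). For 12 myeloid and dendritic cell markers the sum was 216 to 237 CPM in UC7-IFNa, 219 to 275 in UC7-PBS, and 236 to 277 in IgG-IFNa and 187 to 195 in IgG-PBS, with Flt3 at 0 in some libraries of every group and Siglech at 0 in 1 IgG-PBS library. That sum and that of the gd IEL markers given above also lay above PBS in every IFNa library after IgG and overlapped after UC7-13D5. Of 8 B and plasma cell markers 6 were found, summing to 506 to 947 CPM in UC7-IFNa and 437 to 510 in UC7-PBS, and to 543 to 587 in IgG-IFNa and 405 to 598 in IgG-PBS, with Cd79a and Mzb1 at 0 in some PBS libraries. The 5 tested had a median log2 fold change of 0.86 after UC7-13D5, 0.56 after IgG and 0.71 on average, where Igha, the constant region of IgA, was called (0.99, SE 0.16, edgeR adjusted p = 0.00410). The median was above 0 after both antibodies, as it was for the 6 members. It was also above 0 after UC7-13D5 and IgG for the secretory (0.14 and 1.56) and the myeloid and dendritic markers (0.20 and 0.76). The same held for the gd IEL markers (0.17 and 0.13) and for stroma and endothelium (0.19 and 0.33, 3 tested). For absorptive enterocytes the medians were -0.15 and 0.068, and for alpha beta T cells -0.054 and -0.0065. Mitochondrial transcripts took 0.611% to 1.23% of counts in UC7-IFNa, 1.07% to 1.47% in UC7-PBS, and 0.582% to 0.801% in IgG-IFNa and 0.866% to 1.73% in IgG-PBS. The part of these measures in the members' differences was not tested.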

How the data were processed

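Gamma delta intraepithelial lymphocytes of 4 groups gave 13 libraries, prepared, per the labels' protocols, with the SMART-Seq HT kit. Partek, DESeq2, STAR 2.7.8a and the build mm39 appear in the submitters' processing notes, with no role given. The authors deposited a gene table of expected counts without scaling, of which 37.34% were not whole (tolerance 1e-06), and they were rounded here. A second deposited table, of 11281 genes, held a normalized signal equal to the first table over a constant of each library (largest relative spread 1.86e-06), and it served only as an alternative. Genes were filtered with filterByExpr (minimum count 10), scaled by TMM and fitted in 1 quasi-likelihood model of all 13 libraries with a coefficient per group (edgeR 4.0.16, R 4.3.3). Tests were two-sided, adjusted by Benjamini-Hochberg over 15835 genes, at a threshold of 0.05. Standard errors were taken from F, as the absolute log2 fold change over its root. The script was tested on simulated data. Alternatives used DESeq2 1.42.0, limma 3.58.1 (pseudocount 1), another scaling, no filter, other sets of libraries, a Y-linked covariate and a replicate block.

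The members and gene lists were chosen with earlier results of these data known. Of the list of upstream genes, 1 item is not reported here. Named were the 6 members, other TRIM genes past the threshold, partner and pathway genes past the threshold in an IFNa comparison, and for each member the 3 genes of nearest pattern at a mean log2 CPM of at least 3. The cluster's other genes, Pml, Trim35 and the partner and pathway genes below the threshold were named after their values were seen. Depth is given as the range of library totals with the results. The titles name the libraries as biological replicates, but the sources used here do not give the animals behind each, so p-values measure the spread between these libraries. Promoter windows came from RefSeq (GRCm38.p6), whose coordinates were not converted to mm39. Transcripts for shared stretches came from GENCODE M21.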

Additional observations from a re-analysis of the deposited data

Results flagged for a closer look

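Trim26 in the IgG-IFNa group had 1 library far from the others. IgG-IFNa library 3 stood at 131 CPM, against 150, 152 and 153 CPM in libraries 1, 2 and 4. The gap to the nearest library was 0.86 of the group's range, above Dixon's critical value for 4 libraries. Chance alone flags about 1 in 20 groups, and 6 transcripts were looked at in this group.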

How the results depend on the processing

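Averaged over both antibodies, Trim30a (log2 fold change 0.75 to 1.04), Trim30d (0.88 to 1.07) and Trim34a (0.77 to 1.03) stayed called in all 21 alternatives, with adjusted p up to 0.0218, 0.00498 and 0.0275. The calls within 1 antibody were less stable. After IgG the main count of 1 member became 3 with DESeq2, 3 with only the groups compared and 3 with the Y-linked covariate without UC7-IFNa library 2. It became 0 with the Y-linked covariate and 0 without IgG-IFNa libraries 3 and 4. After UC7-13D5 the main count of 2 members became 3 with DESeq2 and 0 with only the groups compared. It became 1 without IgG-IFNa libraries 3 and 4 and 4 with the covariate without UC7-IFNa library 2. Leaving out 1 library gave 0 to 3 members after IgG, 0 to 4 after UC7-13D5, 3 to 4 on average and 0 to 0 in the other comparisons. Replicate numbers did not pair the libraries: deviations of same-numbered libraries correlated at -0.21 to 0.13, and 1 of 12 libraries was closest to its own number. With the replicate block, 0 members were called after IgG, 1 after UC7-13D5 and 3 on average.

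Over all genes, the calls after IgG were 131 as reported, 406 with DESeq2, 343 with only the groups compared, 27 with the block, 24 with the covariate, 21 without IgG-IFNa libraries 3 and 4, and 24 to 430 without 1 library. After UC7-13D5 they were 57, then 141 with DESeq2, 34 with the block, 22 with only the groups compared, 136 with the covariate without UC7-IFNa library 2, and 29 to 110 without 1 library. On average they were 315, then 777, 146 with the block, 131 without IgG-IFNa libraries 3 and 4, 621 with the covariate without UC7-IFNa library 2, and 172 to 933 without 1 library. For UC7-13D5 against IgG with PBS they were 1, then 69 with DESeq2, 0 without a filter, 19 with only the groups compared, 5 without IgG-IFNa libraries 3 and 4, and 0 to 4 without 1 library. With IFNa they were 12, then 120 with DESeq2, 1 with the block, 2 with limma, 0 with only the groups compared, 23 with the covariate, 6 without IgG-IFNa libraries 3 and 4, 27 with the covariate without UC7-IFNa library 2, and 0 to 52 without 1 library. The interaction had 0, then 5 with DESeq2 and 0 to 1 without 1 library. The causes were not tested.

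Directions turned only for values that were not called. Trim21 after IgG was 0.093 without IgG-IFNa libraries 3 and 4, 0.075 with the covariate without UC7-IFNa library 2, and -0.10 to 0.014 without 1 library. Trim14 on average was -0.025 to 0.11 without 1 library. With PBS, UC7-13D5 against IgG, Trim14 was -0.0034 with only the groups compared, -0.0017 without IgG-IFNa libraries 3 and 4 and -0.11 to 0.17 without 1 library. Trim21 was 0.056 and Trim30d 0.014 there with the covariate without UC7-IFNa library 2, and Trim30d -0.19 to 0.00010 without 1 library. With IFNa, Trim21 was -0.028 with the block, -0.0076 with limma, -0.011 with the covariate, -0.12 without IgG-IFNa libraries 3 and 4 and -0.15 to 0.23 without 1 library. Trim26 was 0.16 with the covariate without UC7-IFNa library 2 and -0.34 to 0.11 without 1 library, Trim30a -0.044 to 0.46 and Trim34a -0.071 to 0.40. The interaction of Trim26 was -0.0063 with the block, -0.043 with limma and -0.15 to 0.30 without 1 library. A fit of only the groups compared was not run for the average and the interaction, which use all groups.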
